A study of Danio rerio with 48 samples.

Results

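The crystallin genes of the zebrafish were described in yolk tissue and in whole embryos during the first days of development. A gene counted as a crystallin if its symbol in the count table began with cryaa, cryab, cryba, crybb, crybg, crygm, crygn or crygs. This rule, which used no measured value, found 58 of the 36109 genes. They fall into 3 alpha, 13 beta, 33 gamma M, 2 gamma N and 4 gamma S crystallins, and 3 crybg genes. The 8 groups were yolk at 6, 10, 26 and 48 hours post fertilization (hpf) and whole embryos at 6, 10, 26 and 48 hpf, with 4 bulk RNA libraries in each group. All 32 libraries carry the genotype label WT, and the labels name no treatment. No source used here gives the fish strain, the number of embryos in a library or the way in which yolk was separated. The series concerns the mobilization of yolk lipid through Hnf4 and lipoproteins during growth after the segmentation stage, and its 16 body tissue libraries were not analysed here.

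Crystallins are the main soluble proteins of the eye lens, where they are packed densely enough to bend light. Alpha crystallins are small heat shock proteins, which hold unfolding proteins in solution, and alpha B crystallin is also made in muscle and other tissues. Beta and gamma crystallins share a fold of repeated Greek key motifs and are made in bulk by lens fibre cells as these differentiate. Fish have a large set of gamma M crystallins, rich in methionine and suited to a hard, highly refractive lens. Gamma N crystallins stand between the beta and gamma families in sequence, and gamma S crystallin is a monomer of the lens. The genes crybg1a and crybg1b encode proteins with beta-gamma crystallin motifs that are not counted among the lens crystallins, and crybgx is set beside them by its name alone. The human protein CRYBG1 was described as lost in melanoma.

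Library totals ran from 32302472 to 39765045 counts. Levels are CPM (counts scaled to a common library size) after scaling by the trimmed mean of M values (TMM). Reads were not divided by transcript length, so levels of different genes are not ranked against each other. Of the 58 crystallins 43 had enough counts to be tested, among them 2 of 3 alpha, 12 of 13 beta, 24 of 33 gamma M, 2 of 2 gamma N, 0 of 4 gamma S and 3 of 3 crybg genes. The 15 others had between 0 and 103 counts over all 32 libraries. A crystallin was called higher or lower where the quasi-likelihood test of edgeR, fitted to all genes, gave an adjusted p under 0.05. As bulk libraries were counted, fewer cells of a type and less RNA per cell cannot be told apart. The labels name whole embryos apart from body tissue, so a whole embryo library may hold yolk as well. Yolk is then compared with a whole that includes it, and a whole embryo level is not a level outside the yolk. The yolk label was checked with apobb.1, which encodes an apolipoprotein B made by the yolk syncytial layer. At 6 hpf apobb.1 averaged 1772 ± 571 CPM in yolk and 169.7 ± 59.7 CPM in whole embryos (SD, n = 4 each). At 48 hpf it averaged 71729 ± 2726 CPM in yolk and 2863 ± 602 CPM in whole embryos (SD, n = 4 each).

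Many of these genes are near copies of each other. All 58 symbols were found in the RefSeq gene table of the assembly GRCz12tu, where 39 of them lie next to another crystallin with no other protein-coding gene between. The 19 crygm2d genes lie on one chromosome in that table, each next to another crystallin. Among the beta genes the neighbours are cryba1l2 with crybb1l2, crybb1 with cryba4, crybb1l1 with cryba1l1, and cryba1a with crybb1l3. No source used here tells how reads that match several copies were counted. Values of single crygm2d genes are therefore uncertain, and the class sums are given beside them.

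In 5 libraries the lens crystallins stood far above most other replicates of their group. The summed level of the beta and gamma crystallins was 39.3, 57.5, 23.2 and 437.1 CPM in yolk replicates 1 to 4 at 6 hpf, and 67.8, 607.1, 8.06 and 8.52 CPM in whole embryo replicates 1 to 4 at 6 hpf. At 10 hpf it was 9.07, 18.2, 5.23 and 23.8 CPM in yolk, against 4.28, 7.24, 4.73 and 170.5 CPM in whole embryos. At 26 hpf it was 175.2, 1.79, 13.5 and 5.17 CPM in yolk, against 436.9, 338.3, 421.2 and 521.5 CPM in whole embryos. Yolk replicate 4 at 6 hpf, yolk replicate 1 at 26 hpf, whole embryo replicates 1 and 2 at 6 hpf and whole embryo replicate 4 at 10 hpf therefore hold far more crystallin reads than most libraries beside them. Whole embryo replicate 1 at 6 hpf, with 67.8 CPM, is the least clear of the 5. It lies far under replicate 2 of its group and near yolk replicate 2 at 6 hpf, which was not set apart.

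The make-up of these reads differed between the 5 libraries. Gamma M genes took 58.0% of beta and gamma crystallin counts in yolk replicate 4 at 6 hpf, 57.9% and 60.3% in whole embryo replicates 1 and 2 at 6 hpf, and 62.3% in whole embryo replicate 4 at 10 hpf. They took 8.24% in yolk replicate 1 at 26 hpf. In whole embryos this share ran from 9.44% to 15.2% at 26 hpf and from 40.6% to 42.6% at 48 hpf, so the 4 early libraries lie above both ages and the yolk library of 26 hpf lies just under whole embryos of its own age. Across the 36 beta and gamma crystallins with at least 1 CPM in whole embryos at 48 hpf, log2 levels in yolk replicate 1 at 26 hpf had a Pearson r of 0.95 with whole embryos of 26 hpf and 0.65 with those of 48 hpf. The 4 early libraries had r between 0.52 and 0.61 with whole embryos of 26 hpf and between 0.88 and 0.93 with those of 48 hpf. The other libraries of 6 and 10 hpf and of yolk at 26 hpf had r from 0.24 to 0.70 with 26 hpf. With 48 hpf their r ran from -0.02 to 0.57, but was 0.80 in yolk replicate 4 at 10 hpf. Their gamma M share ran from 0% to 49.3%, the highest in that same library. The make-up of the 5 libraries thus differed from the rest by degree. These correlations are across genes that share libraries and neighbouring copies, and describe the libraries only.

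Genes outside the crystallins stood high in only some of these libraries. Over the 31 beta and gamma crystallins with at least 10 CPM in whole embryos at 48 hpf, the median level in whole embryo replicate 2 at 6 hpf was 15.9% of that in whole embryos at 48 hpf. It was 10.2% in yolk replicate 4 at 6 hpf, 4.66% in whole embryo replicate 4 at 10 hpf, 1.54% in whole embryo replicate 1 at 6 hpf and 0.751% in yolk replicate 1 at 26 hpf. Other genes were taken with at least 100 CPM in whole embryos at 48 hpf and under 0.5 CPM in the other libraries of the group that do not stand apart. Their median reached 0.554% (113 genes) in whole embryo replicate 2 at 6 hpf and 0.346% (113 genes) in whole embryo replicate 1 at 6 hpf. It was 0.192% (38 genes) in yolk replicate 4 at 6 hpf and 0.0653% (73 genes) in whole embryo replicate 4 at 10 hpf. In yolk replicate 1 at 26 hpf these other genes lay above the crystallins, with 3.02% over 8 genes. Libraries that do not stand apart, each with its own such genes, had 0.13%, 0.295% and 0% in yolk replicates 1 to 3 at 6 hpf. They had 0.012% to 0.0499% in whole embryos at 10 hpf and 0.0151% to 0.0352% in whole embryos at 6 hpf. In yolk at 26 hpf they had 0.0939% to 0.338%. Yolk replicate 4 at 6 hpf thus lay within the range of its group, and whole embryo replicate 4 at 10 hpf close to it. In yolk replicate 1 at 26 hpf the summed level of 14 skeletal muscle genes was 8981 CPM. It was between 112.3 and 281.2 CPM in the other 3 yolk libraries of 26 hpf. The opsin gene opn1sw1, made in ultraviolet cones, had 5.61 and 5.56 CPM in whole embryo replicates 1 and 2 at 6 hpf and 0 CPM in replicates 3 and 4, while whole embryos of 48 hpf had 0.394 to 0.641 CPM. This opsin gene is 1 of 14 listed photoreceptor genes, which did not move as a set. In whole embryos at 6 hpf opn1lw2 averaged 2.24 CPM, otx5 0.125 CPM and crx 0.18 CPM. At 48 hpf these 3 genes averaged 1.95, 118.3 and 60 CPM. The source of the reads by which libraries stand apart was not tested.

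**Figure D1:**
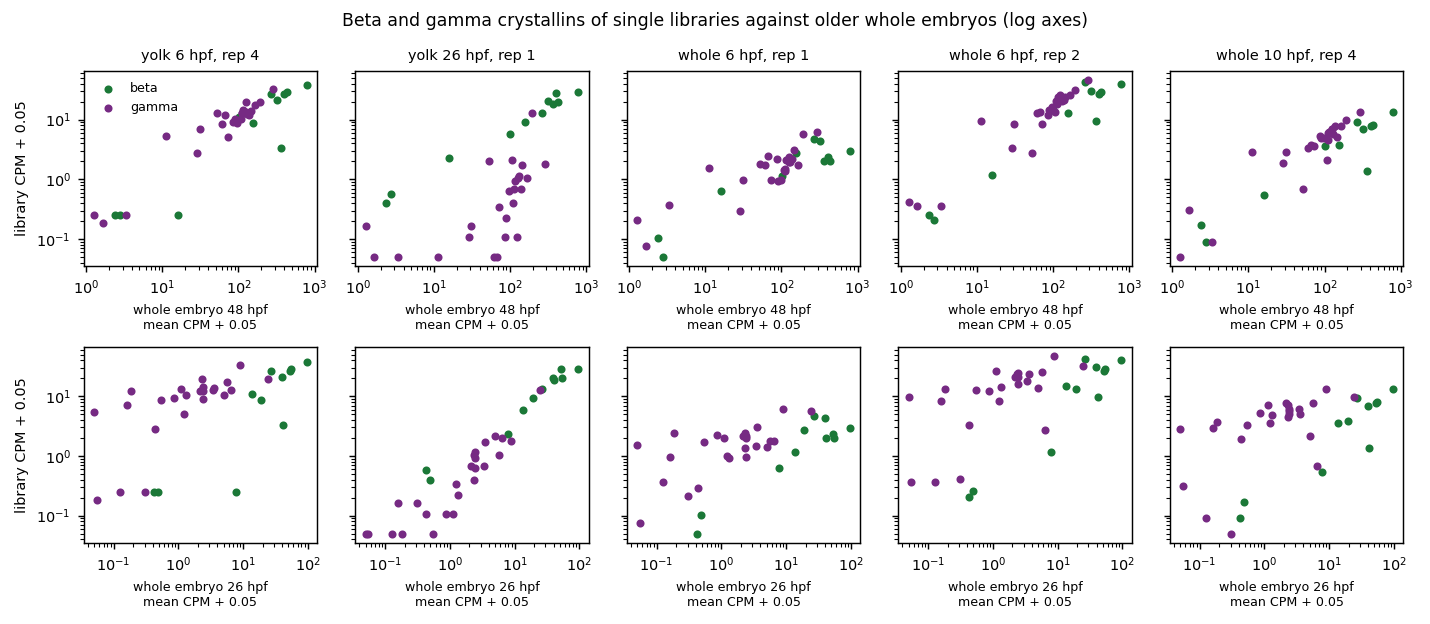
Levels of 36 beta (green) and gamma (purple) crystallins in each of the 5 libraries that stand apart (vertical axis, CPM + 0.05, log scale) against their mean in whole embryos at 48 hpf (upper row) and at 26 hpf (lower row, both horizontal axes CPM + 0.05, log scale). Points of yolk replicate 1 at 26 hpf lie close to a line in the lower row (r 0.95), and those of the 4 early libraries in the upper row (r 0.88 to 0.93).

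Lens crystallins were most abundant in whole embryos at 48 hpf. The beta class summed to 3078, 3065, 2792 and 2481 CPM in the 4 whole embryo libraries of 48 hpf, and the gamma M class to 2248, 2432, 2099 and 1885 CPM. Together the beta and gamma lens classes took 0.000349% ± 0.000152 of all counts in yolk at 48 hpf and 0.723% ± 0.0597 in whole embryos at 48 hpf (SD, n = 4 each). At 26 hpf they took 0.0635% ± 0.0119 of all counts in whole embryos (SD, n = 4). The alpha sum was also highest in whole embryos at 48 hpf, with a mean of 29.8 CPM, but yolk at 6 hpf had 19.9 CPM. At 26 hpf the alpha and crybg sums in yolk lay above those in whole embryos with TMM scaling. With library totals the crybg sum did not, with 132.8 CPM in yolk and 140.6 CPM in whole embryos. The gamma S class was near 0 everywhere, with at most 0.402 CPM in a library.

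**Figure D2:**
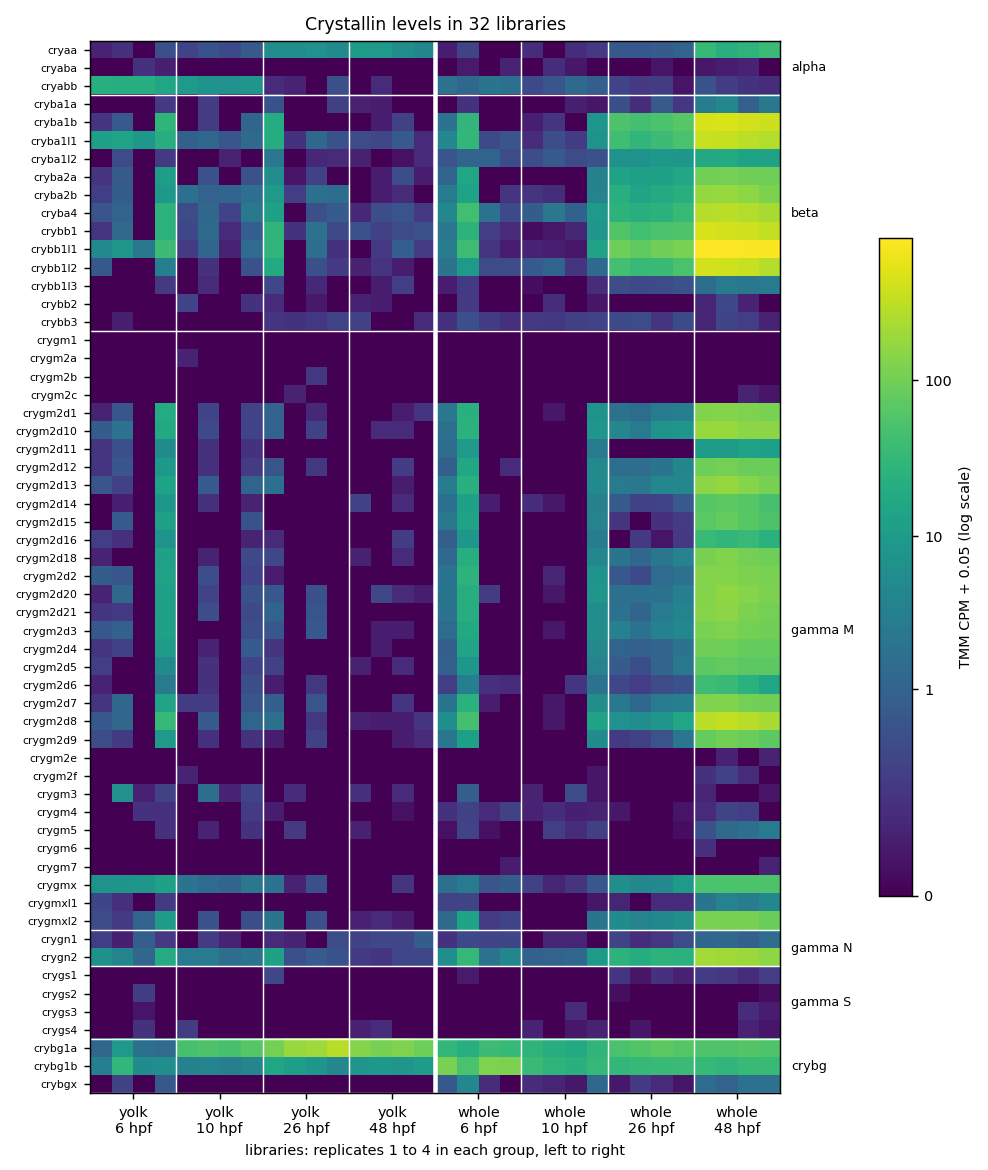
Levels of all 58 crystallins (rows, by class) in the 32 libraries (columns, yolk left of whole embryos, replicates 1 to 4 in each block), coloured by TMM CPM + 0.05 on a log scale. The beta and crygm2d genes form one bright block in the 4 whole embryo libraries of 48 hpf, and single bright columns mark yolk replicate 4 at 6 hpf, yolk replicate 1 at 26 hpf, whole embryo replicate 2 at 6 hpf and whole embryo replicate 4 at 10 hpf.

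**Figure D3:**
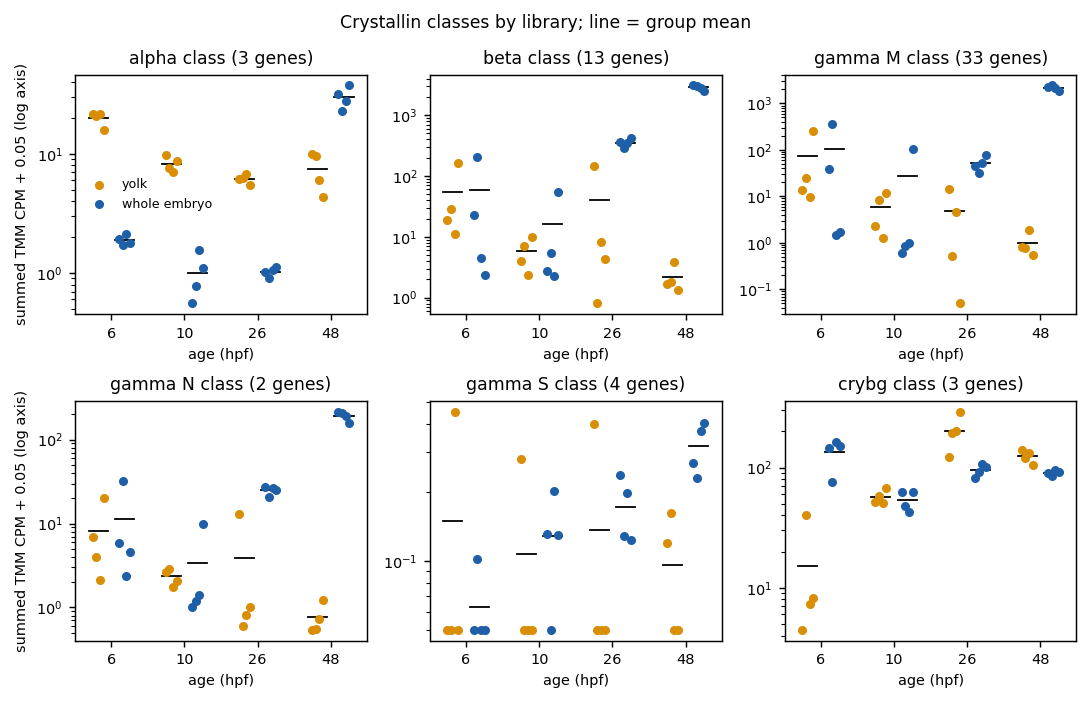
Summed TMM CPM + 0.05 (log axis) of each crystallin class in each library of yolk (orange) and whole embryos (blue) against age in hpf, with a line at the group mean. In whole embryos the beta, gamma M and gamma N sums at 48 hpf lie above every other group, and at 26 hpf a single yolk library lies near whole embryos in the beta and gamma N panels.

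Yolk at 48 hpf held hardly any of the beta and gamma crystallin reads that whole embryos of that age carried, while the alpha gene cryaa was 3.97-fold lower. Of the 43 tested crystallins 39 were lower in yolk than in whole embryos, while 27.5% of all genes tested were lower. Higher in yolk was 1, while 22.8% of all genes tested were higher. The 39 were both tested alpha genes, 11 beta genes, 23 gamma M genes, crygn2, crybg1b and crybgx, and the 1 was crybg1a. In each of these 40 the yolk and whole embryo libraries did not overlap, but the share of all genes without overlap was not computed. The median log2 change of the 43 tested crystallins was -10.11, or -10.01 with genes at 0 counts set to their bound, against -0.04 for all genes tested. Genes that passed the filter only through their reads in whole embryos had to differ here, so this count and median are a description of the tested genes. Over all alternatives tried, libraries left out included, between 33 and 42 crystallins were lower. No share of all genes is given for these alternatives.

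Among the beta crystallins, which are structural lens proteins, crybb1l1 had 0, 0.196, 0.854 and 0.223 CPM in yolk at 48 hpf, against 809.2, 810.3, 775.7 and 761.9 CPM in whole embryos. This is a log2 change of -11.22 (SE 2.25, adjusted p = 0.000166 by edgeR). Its neighbour cryba1l1 had 0.423, 0.336, 0.74 and 0.112 CPM in yolk, against 361, 346.6, 304.1 and 263.6 CPM in whole embryos. Every whole embryo library was above every yolk library for both genes, by more than 100 times the highest yolk value. The other beta genes with high levels in whole embryos were likewise lower in yolk. The log2 change was -12.21 for cryba1b, -12.20 for crybb1l2, -11.69 for cryba2b, -9.86 for crybb1, -9.61 for cryba4 and -8.15 for cryba1l2 (adjusted p from 3.96e-07 to 0.000523 by edgeR). The beta gene that did not pass was crybb3, with a mean of 0.0984 CPM in yolk and 0.184 CPM in whole embryos, and crybb2 had too few counts to be tested.

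Among the gamma M crystallins, the crystallins typical of fish lenses, crygm2d8 had 0.0704, 0.0561, 0.0569 and 0.168 CPM in yolk at 48 hpf, against 294.7, 338.9, 281.9 and 239.6 CPM in whole embryos (log2 change -11.62, SE 2.54, adjusted p = 0.000425 by edgeR). Several crygm2d genes had 0 counts in all 4 yolk libraries. Set against 3 counts over the group, crygm2d21 was at least 5846-fold lower in yolk, crygm2d2 at least 5606-fold, crygm2d15 at least 3031-fold and crygm2d11 at least 501.5-fold. For crygm2d13, with 2 counts in yolk and 29285 in whole embryos, the ratio was 9825 with an exact interval of 2720 to 81130. Most small counts in these libraries were even, so that intervals and bounds, which cover counting error only, may be too narrow. The gene crygmx, which carries the gamma M name but lies apart from the crygm2d cluster in the RefSeq table, had 0, 0, 0.171 and 0 CPM in yolk, against 52.3, 52.1, 51.4 and 53.6 CPM in whole embryos (log2 change -10.11, SE 0.997, adjusted p = 2.33e-09 by edgeR).

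Of the gamma N crystallins crygn2 passed and crygn1 did not, and a difference between them was not tested. The gene crygn2 had 0.211, 0.168, 0.341 and 0.363 CPM in yolk at 48 hpf, against 214, 206.3, 189.3 and 158.2 CPM in whole embryos (log2 change -9.44, SE 1.31, adjusted p = 1.3e-06 by edgeR). Its paralog crygn1 had 0.282, 0.337, 0.341 and 0.81 CPM in yolk, against 1.15, 1.27, 0.921 and 1.53 CPM in whole embryos, and did not pass (log2 change -1.45, SE 0.907, adjusted p = 0.189 by edgeR). The 4 gamma S genes had too few counts for the test at any age. At 48 hpf crygs1 had 0 counts in each yolk library, against 10, 10, 6 and 12 counts in whole embryos, and was at least 8.50-fold lower in yolk when set against 3 counts over the group. The gamma S sum was 0.0704, 0.112, 0 and 0 CPM in yolk, against 0.22, 0.181, 0.32 and 0.354 CPM in whole embryos, with no overlap.

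Lens genes outside the crystallin family gave values of the same kind in this comparison, with exceptions. Of 17 genes of lens fibre structure and membrane 13 were lower and 2 higher in yolk at 48 hpf (median log2 change -6.83), while 27.5% of all genes tested were lower and 22.8% higher. The lists of other tissues and of small heat shock genes are read against the same shares. The water channel of fibre cells mipa averaged 0.141 CPM in yolk and 92.2 CPM in whole embryos, and its paralog mipb 0.0567 CPM in yolk and 74.9 CPM in whole embryos. The fibre membrane genes lim2.1, with 0 counts in yolk, and lim2.3 and the lens glutamine synthetase-like gene lgsn were lower as well. The intermediate filament gene listed as BFSP1 was also lower in yolk but well above 0, with 33.9, 17.7, 24.4 and 17 CPM in yolk, against 161.1, 86.9, 119.4 and 136.7 CPM in whole embryos (log2 change -2.44, SE 0.846, adjusted p = 0.0179 by edgeR). The higher pair, caprin2 and tdrd7a, encode RNA-binding proteins that are also made outside the lens and were named after their values were seen.

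Of 11 transcription factor genes of the lens 9 were lower in yolk at 48 hpf (median log2 change -6.49). The eye regulator pax6a averaged 0.239 CPM in yolk and 67.8 CPM in whole embryos, and hsf4, a heat shock factor active in lens fibres, 0.0352 CPM in yolk and 5.78 CPM in whole embryos. The genes sox1a, sox1b and pax6b were lower too, while prox1a averaged 66.5 CPM in yolk and 93.6 CPM in whole embryos and did not pass (adjusted p = 0.0593 by edgeR). Other tissues were lower in yolk as well at 48 hpf, with 14 of 14 skeletal muscle genes, 8 of 8 neuronal genes and 7 of 8 epidermal genes, of which 1 was higher. Of 14 photoreceptor genes 13 were tested and 7 were lower, among them otx5, crx, gnat1 and opn1lw2, and 2 were higher. Means were higher in yolk for gnat2 (10.1 CPM in yolk, 0.737 CPM in whole embryos) and pde6c (6.16 and 1.38 CPM), among others. The gene rcvrna averaged 7.98 CPM in yolk and 4.23 CPM in whole embryos. The lens crystallins were thus lower in yolk together with most listed genes of muscle, neurons and epidermis. The part of these tissues in the result was not tested.

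In whole embryos most of the beta genes called higher were called at 26 hpf and most of the gamma M genes at 48 hpf. At 26 hpf against 10 hpf, 16 of the 43 tested crystallins were higher, while 30% of all genes tested were higher. Lower at 26 hpf were 3, while 26% of all genes tested were lower. The 16 were 10 beta genes, crygmx, crygmxl2, crygn1, crygn2, cryaa and crybg1a. At 48 hpf against 26 hpf, 26 crystallins were higher, while 12.5% of all genes tested were higher and 9.83% lower. These were 23 gamma M genes, cryaa, crygn2 and 1 beta gene, crybb1l2. The median log2 change of the tested crystallins was 4.88 in this step, against 0.09 for all genes tested. Genes that passed the filter only through their reads at 48 hpf had to be higher in this step. Counts and medians of this step, here and below, are therefore a description of the tested genes.

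Most beta genes had reads well above those of 10 hpf by 26 hpf. The beta class summed to 364.9, 285.6, 342.5 and 417.5 CPM in whole embryos of that age, and the gamma M class to 44.8, 31.9, 52 and 79.1 CPM. The gene crybb1l1 had 94.3, 75.4, 100.8 and 114.4 CPM in whole embryos at 26 hpf, against 0.0811, 0.0643, 0.0436 and 13.3 CPM at 10 hpf (log2 change 4.83, SE 1.66, adjusted p = 0.0156 by edgeR). The 26 hpf libraries lie above all 10 hpf libraries, of which replicate 4 is the high one. Likewise crybb1l2 was higher by 5.64 (SE 1.29) and crybb1 by 4.74 (SE 1.66) on the log2 scale.

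From 26 to 48 hpf most crygm2d genes were higher by 29.5-fold or more, while the fitted folds of the beta genes reached 9.97-fold; a difference between the classes was not tested. In the gamma M class crygm2d8 had 294.7, 338.9, 281.9 and 239.6 CPM at 48 hpf, against 6.75, 5.83, 7.9 and 15 CPM at 26 hpf, a 32.5-fold difference. Among the other crygm2d genes the differences were 29.5-fold for crygm2d10, 41.3-fold for crygm2d13, 55.0-fold for crygm2d1, 65.8-fold for crygm2d20 and 273-fold for crygm2d16. The gene crygm2d11 had 0 counts at 26 hpf and 2242 at 48 hpf, and was thus at least 768-fold higher. In the beta class crybb1l1 was 8.20-fold, crybb1 7.67-fold, cryba1b 7.99-fold, cryba1l1 8.03-fold and cryba4 9.97-fold higher in the mean at 48 hpf, with no overlap between ages. None of these 5 passed in the fit of all libraries (adjusted p from 0.0591 to 0.221 by edgeR), where crybb1l2 passed with an 8.80-fold difference. The median log2 change was 2.97 over the 12 tested beta genes and 5.77 over the 24 tested gamma M genes. The gamma M gene crygmx, with 52.3, 52.1, 51.4 and 53.6 CPM at 48 hpf, against 6.28, 4.41, 4.77 and 9.94 CPM at 26 hpf, was 8.24-fold higher (adjusted p = 0.00109 by edgeR).

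These counts depended on the libraries in the fit, in which all groups share 1 spread. With the 4 libraries each of 48 and 26 hpf fitted alone, 38 crystallins were higher at 48 hpf, 11 of them beta genes and 23 gamma M genes, while 27.8% of all genes tested were higher. Without the 5 libraries, 34 were higher at 48 against 26 hpf, while 15.2% of all genes tested were higher, and 35 at 26 against 10 hpf, 20 of them gamma M genes, while 29.4% were higher. Without whole embryo replicate 4 of 10 hpf alone, 31 were higher at 26 against 10 hpf. Leaving out whole embryo replicate 1, 2 or 3 of 26 hpf brought the count at 48 against 26 hpf to 14, 14 and 15. For fits that leave out a single library, here and below, no share of all genes called is given. Their counts show only how far the calls rest on that library. The 5 libraries were picked by their crystallin levels, so fits without them show how far the calls rest on them and support nothing further.

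In the same step of age the lens fibre genes outside the family were called higher in 9 of 17 cases and lower in 1, while 12.5% of all genes tested were higher and 9.83% lower. The gene lgsn averaged 25.7 CPM in whole embryos at 48 hpf and 0.0685 CPM at 26 hpf, and mipb 74.9 CPM at 48 hpf and 14.3 CPM at 26 hpf. The early fibre gene mipa, with a mean of 92.2 CPM at 48 hpf and 41.9 CPM at 26 hpf, did not pass (adjusted p = 0.374 by edgeR). Of the lens transcription factors hsf4 and prox1a were higher at 48 hpf.

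The change from 26 to 48 hpf was tested for a difference between yolk and whole embryos. For 18 crystallins the change was lower in yolk than in whole embryos, while this held for 13.2% of all genes tested and the opposite for 9.29%. They were cryaa, 9 beta genes, 7 gamma M genes and crygn2. Genes that passed the filter only through whole embryos at 48 hpf had to differ here too, so this count describes the tested genes. The difference in log2 change was -7.61 (SE 2.402) for crybb1l1, -9.15 (SE 1.99) for crybb1l2, -6.75 (SE 1.47) for crygn2 and -6.89 (SE 1.17) for crygmx. It was -12.87 (SE 4.16) for crygm2d21 and -10.15 (SE 3.32) for crygm2d13, both fitted against yolk groups at or near 0. Without yolk replicate 1 of 26 hpf the count was 5, and with the 16 libraries of these 4 groups fitted alone it was 31, while 18.4% of all genes tested were lower.

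**Figure D4:**
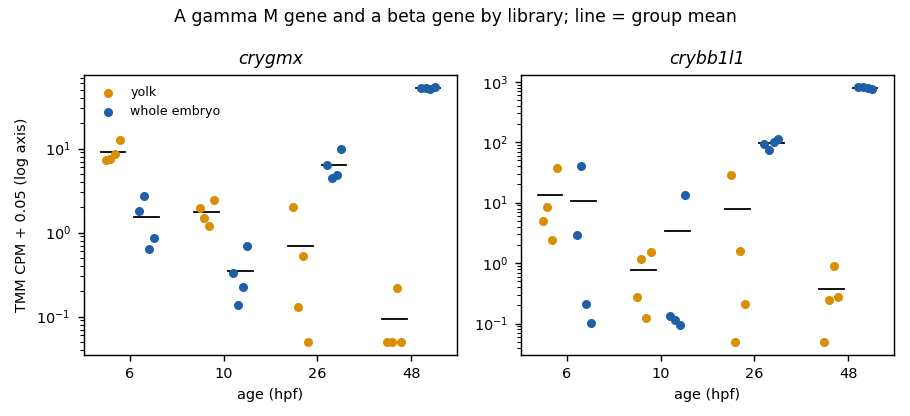
TMM CPM + 0.05 (log axis) of the gamma M gene crygmx and the beta gene crybb1l1 in each library of yolk (orange) and whole embryos (blue) against age in hpf, with a line at the group mean. For crygmx the yolk libraries lie above whole embryos at 6 and 10 hpf and under them at 26 and 48 hpf, and for crybb1l1 the groups overlap at 6 and 10 hpf.

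The alpha crystallins, small heat shock chaperones, followed patterns of their own. The lens gene cryaa had 5.97, 6.14, 6.67 and 4.90 CPM in yolk at 26 hpf, against 0.675, 0.669, 0.758 and 1.03 CPM in whole embryos (log2 change 2.91, SE 0.589, adjusted p = 0.000192 by edgeR). At 48 hpf it had 9.93, 9.48, 6.03 and 4.30 CPM in yolk, against 31.3, 22.3, 27.3 and 37.2 CPM in whole embryos (log2 change -1.99, SE 0.555, adjusted p = 0.0036 by edgeR). The yolk libraries were above all whole embryo libraries at 26 hpf and under all of them at 48 hpf. At 10 hpf cryaa was 4.10-fold higher in yolk, with a mean of 0.476 CPM in yolk and 0.113 CPM in whole embryos (adjusted p = 0.0155 by edgeR). Scaling by library totals ended that call at 10 hpf (adjusted p = 0.152) and left those at 26 and 48 hpf.

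In yolk cryaa was 12.4-fold higher at 26 than at 10 hpf (adjusted p = 1.62e-05 by edgeR), and in whole embryos it was 37.6-fold higher at 48 than at 26 hpf (adjusted p = 8.01e-07 by edgeR). The change from 26 to 48 hpf differed between the tissues by -4.90 on the log2 scale (SE 0.809, adjusted p = 5.67e-05 by edgeR). The yolk level of cryaa at 26 hpf did not vary as widely as that of the other lens crystallins. In yolk replicate 1 of that age, which holds 175.2 CPM of beta and gamma crystallins, cryaa had 5.97 CPM, and in yolk replicate 2, which holds 1.79 CPM of them, cryaa had 6.14 CPM. Before scaling cryaa had 206, 154, 140 and 92 counts in yolk replicates 1 to 4 of 26 hpf, the highest in replicate 1. At 48 hpf the 4 yolk libraries had 2.96 to 6.32 CPM of beta and gamma crystallins in sum.

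The gene cryabb, a zebrafish gene for alpha B crystallin, was an early yolk transcript. It had 21.5, 20.7, 21.3 and 15.2 CPM in yolk at 6 hpf, against 1.84, 1.29, 2.08 and 1.65 CPM in whole embryos, an 11.5-fold difference (log2 change 3.52, SE 0.581, adjusted p = 7.11e-06 by edgeR). At 10 hpf it had 9.42, 7.03, 6.56 and 7.88 CPM in yolk, against 0.385, 0.6, 1.33 and 0.855 CPM in whole embryos (9.72-fold, adjusted p = 1.84e-05 by edgeR). No yolk library overlapped with a whole embryo library at either age, and neither call was lost under any alternative tried. In yolk cryabb was 2.55-fold lower at 10 than at 6 hpf (adjusted p = 0.0367 by edgeR, over 0.05 when any one of 7 of the 8 libraries was left out) and 47.9-fold lower at 26 than at 10 hpf (adjusted p = 8.11e-08 by edgeR). At 48 hpf it averaged 0.0280 CPM in yolk and 0.256 CPM in whole embryos.

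The other alpha B gene, cryaba, had 30 counts over all 32 libraries and was not tested. Of 10 further small heat shock genes 1 was higher in yolk at 48 hpf, hspb1, with a mean of 42.4 CPM in yolk and 11.2 CPM in whole embryos, and 8 were lower, while 22.8% of all genes tested were higher and 27.5% lower. The 8 included hspb11, hspb9, hspb2 and hspb12, and hspb8 averaged 52.1 CPM in yolk and 39.7 CPM in whole embryos without passing.

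**Figure D5:**
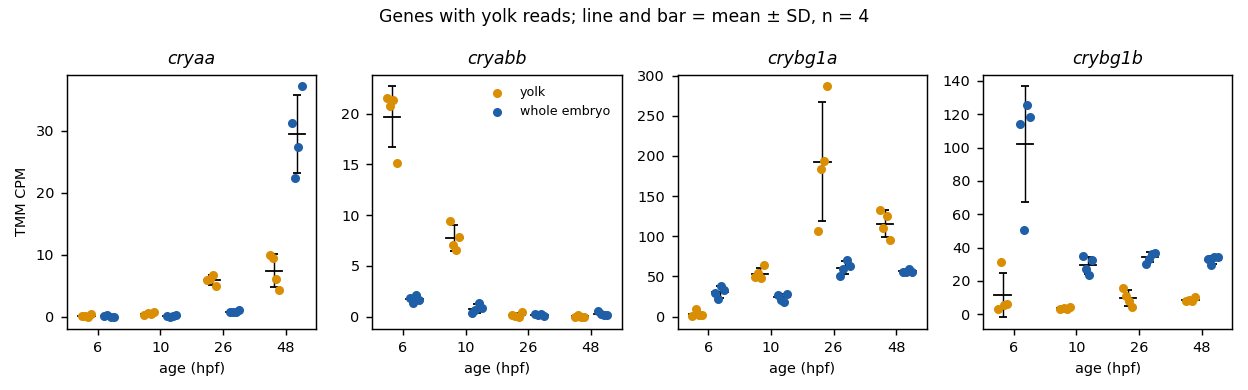
TMM CPM of cryaa, cryabb, crybg1a and crybg1b in each library of yolk (orange) and whole embryos (blue) against age in hpf, on linear axes that start at about 0, with the mean and SD of 4 libraries. The yolk values of cryabb at 6 and 10 hpf and those of crybg1a at 10, 26 and 48 hpf lie above whole embryos, and those of crybg1b lie under them at all 4 ages.

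The crybg genes crybg1a and crybg1b, which are not lens crystallins, had reads in every yolk library, while crybgx had none in yolk from 10 hpf on. The gene crybg1a had 1.17, 8.99, 1.75 and 1.46 CPM in yolk at 6 hpf, against 30, 21.4, 38.1 and 33.4 CPM in whole embryos (9.14-fold lower, adjusted p = 1.39e-07 by edgeR). At 10 hpf it had 48.8, 54.3, 47.5 and 63.7 CPM in yolk, against 27, 21.2, 18.8 and 28.6 CPM in whole embryos (log2 change 1.16, SE 0.374, adjusted p = 0.00973 by edgeR). With TMM scaling the order of the tissues thus turned between 6 and 10 hpf, with no overlap at either age. Per library total they overlap at 10 hpf, with 1268 of 37724311 counts in yolk replicate 1 and 1333 of 36095141 in whole embryo replicate 1.

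At 26 hpf crybg1a had 106.2, 183.7, 193.4 and 287 CPM in yolk, against 50.7, 58.9, 71.1 and 63.4 CPM in whole embryos (log2 change 1.66, SE 0.377, adjusted p = 0.000728 by edgeR). At 48 hpf it had 132.5, 110.6, 125.6 and 95 CPM in yolk, against 55.3, 55.4, 59.7 and 55.1 CPM in whole embryos (log2 change 1.04, SE 0.371, adjusted p = 0.0208 by edgeR). With TMM scaling yolk was above whole embryos in every library of both ages. Per library total the tissues overlap at 26 hpf, with 3661 of 36810093 counts in yolk replicate 1 and 3842 of 36963595 in whole embryo replicate 3. The size of the difference depends on the scaling. With library totals in place of TMM, which lowers the median of all genes by 0.88, 1.06 and 0.61 on the log2 scale at 10, 26 and 48 hpf, the log2 change was 0.29, 0.48 and 0.42 at these ages and passed at none of them (adjusted p = 0.513, 0.255 and 0.356 by edgeR). Without yolk replicate 1 of 48 hpf the adjusted p at 48 hpf was 0.0503.

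In yolk itself crybg1a was 15.9-fold higher at 10 than at 6 hpf (adjusted p = 5.57e-09 by edgeR) and 3.59-fold higher at 26 than at 10 hpf (adjusted p = 0.000155 by edgeR). Its paralog crybg1b moved otherwise. It had 3.26, 31.1, 5.49 and 5.96 CPM in yolk at 6 hpf, against 114, 50.6, 125.7 and 118.4 CPM in whole embryos, and was 8.90-fold lower in yolk. It was lower in yolk by 8.26-fold at 10 hpf, 3.46-fold at 26 hpf and 3.79-fold at 48 hpf (adjusted p from 1.1e-06 to 0.00145 over the 4 ages by edgeR), and no alternative ended these 4 calls. In whole embryos crybg1b was 3.47-fold lower at 10 than at 6 hpf. The third gene of the class, crybgx, had 0 counts in yolk at 10, 26 and 48 hpf, and was at least 68.9-fold lower in yolk at 48 hpf, where whole embryos had 1.41, 1.02, 1.84 and 1.89 CPM. At 6 hpf it had 0, 0.277, 0 and 0.677 CPM in yolk, against 0.668, 4.35, 0.108 and 0 CPM in whole embryos, and at 10 hpf whole embryos had 0.122, 0.0857, 0.0436 and 1.27 CPM. The high libraries of crybgx at these ages were thus among those that stand apart in the beta and gamma crystallins.

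In yolk at 6 hpf replicate 2 was the high library for both crybg1a and crybg1b. The same library held 1851 CPM of the 8 epidermal genes in sum, and the other 3 yolk libraries of 6 hpf held 157 to 307 CPM. At 26 hpf the epidermal sum was 7841, 3695, 3374 and 424 CPM in yolk replicates 1 to 4, while crybg1a was lowest in replicate 1 and highest in replicate 4, and crybg1b highest in replicate 1 and lowest in replicate 4. In whole embryos the epidermal sum was 7412 to 10080 CPM at 6 hpf and 16030 to 19170 CPM at 26 hpf. What part these cells have in the crybg values was not tested.

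At 6 and 10 hpf few crystallins were called higher or lower in yolk than in whole embryos. Libraries of a group lay far apart, with a beta sum of 59.5 ± 99.8 CPM in whole embryos at 6 hpf (SD, n = 4). A gene that was not called may therefore still differ. At 6 hpf 2 of the 43 tested crystallins were higher in yolk, while 24.8% of all genes tested were higher. Lower in yolk at 6 hpf were 4, while 27.4% of all genes tested were lower. At 10 hpf 4 were higher, while 24.5% of all genes tested were higher, and 4 were lower, while 29.9% were lower. The higher ones were cryabb and crygmx at 6 hpf, and cryabb, crygmx, cryaa and crybg1a at 10 hpf. At both ages cryba1l2, crybb3 and crybg1b were among the lower ones, with crybg1a at 6 hpf and crybgx at 10 hpf. With library totals 1 was higher and 6 were lower at 10 hpf. These totals moved the median log2 change of all genes tested there from -0.22 to -1.1. No share of all genes called is given for this scaling, so its counts are not read as a trait of the crystallins.

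The gamma M gene crygmx had 7.24, 7.54, 8.48 and 12.7 CPM in yolk at 6 hpf, against 1.76, 2.69, 0.593 and 0.809 CPM in whole embryos (log2 change 2.62, SE 0.66, adjusted p = 0.00138 by edgeR). At 10 hpf it had 1.92, 1.44, 1.14 and 2.37 CPM in yolk, against 0.284, 0.0857, 0.174 and 0.636 CPM in whole embryos (log2 change 2.52, SE 0.715, adjusted p = 0.00378 by edgeR). All yolk libraries were above all whole embryo libraries at both ages, and whole embryo replicates 1 and 2 of 6 hpf, which stand apart, were the high ones of their group. Scaling by library totals ended the call at 10 hpf (adjusted p = 0.0613). At 26 hpf the order was turned, with 1.97, 0.0797, 0.476 and 0 CPM in yolk, against 6.28, 4.41, 4.77 and 9.94 CPM in whole embryos (log2 change -3.21, SE 0.699, adjusted p = 0.000451 by edgeR).

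A pair of beta genes also had reads in all yolk libraries of 6 hpf. The gene cryba1l1 had 11.8, 14.6, 8.59 and 20.9 CPM in yolk, against 4.36, 30.7, 0.377 and 0.593 CPM in whole embryos, and crybb1l1 had 5.02, 8.54, 2.34 and 37.8 CPM in yolk, against 2.91, 39.9, 0.162 and 0.0539 CPM in whole embryos. The groups overlap through whole embryo replicate 2 for both genes, and neither gene passed. Without the 5 libraries the log2 change was 4.57 for cryba1l1 and 5.57 for crybb1l1. That fit holds only yolk replicates 1 to 3 and whole embryo replicates 3 and 4 of 6 hpf. The libraries left out were picked by their crystallin levels, so its values and counts describe the libraries left and support nothing further. The gene crygn2 had 6.53, 3.87, 1.17 and 19.7 CPM in yolk at 6 hpf, against 5.67, 31.8, 1.97 and 4.26 CPM in whole embryos, with overlap between the tissues. In the fit without the 5 libraries 14 crystallins were higher in yolk at 6 hpf, while 21.8% of all genes tested were higher, and 19 at 10 hpf, while 24.1% were. Leaving out only yolk replicate 4 of 6 hpf gave 13 lower and 2 higher at that age.

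The crygm2d genes had few or no reads at these ages outside the libraries that stand apart. The gene crygm2d8 had 0.669, 1.18, 0 and 32.8 CPM in yolk at 6 hpf, against 6.09, 46.9, 0 and 0 CPM in whole embryos, and crygm2d1 had 0.0837, 0.622, 0 and 19.7 CPM in yolk, against 2.35, 23.5, 0 and 0 CPM in whole embryos. Whole embryo replicates 3 and 4 of 6 hpf had 0 counts for both genes. The tissues overlap for both genes, and neither passed at 6 hpf.

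Along the ages of yolk, 11 crystallins were lower and 1 was higher at 10 than at 6 hpf, while 23.4% of all genes tested were lower and 25.8% higher. The lower ones included crygmx (5.24-fold), cryba1l1 (13.6-fold) and crybb1l1 (18.5-fold), and crygm2d1, crygm2d3, crygm2d10 and crygm2d16, whose libraries overlap between the ages. Without yolk replicate 4 of 6 hpf the log2 change of crybb1l1 was -2.87 (adjusted p = 0.194 by edgeR), and that of the 4 crygm2d genes ran from -2.54 to -0.67 (adjusted p from 0.363 to 0.863 by edgeR), while crygmx and cryba1l1 passed. The gene crybg1b was 3.22-fold lower as well, but without yolk replicate 2 of 6 hpf its adjusted p was 0.205 by edgeR. With the replicate number as a block 5 were lower and 1 was higher. No share of all genes is given for that fit, and its counts show only how far the calls depend on it. Without yolk replicate 4 of 6 hpf 5 were lower and 2 higher, and leaving out a yolk library of 10 hpf gave 4 or 5 lower and 1 higher. At 26 against 10 hpf 6 were higher, while 33.3% of all genes tested were higher, and cryabb was the 1 that was lower, while 23.1% were lower. The higher ones were cryaa, crybg1a, crybg1b, crybb1l2, cryba1l2 and crybb3. Of these crybb1l2 and cryba1l2 had their highest yolk values of 26 hpf in replicate 1, and cryba1l2 had 2.26, 0, 0.0952 and 0.107 CPM in replicates 1 to 4. Without that library the log2 change was 0.34 for crybb1l2 (adjusted p = 0.905 by edgeR) and 1.56 for cryba1l2 (adjusted p = 0.354 by edgeR).

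At 26 hpf 6 crystallins were lower in yolk than in whole embryos, while 25.3% of all genes tested were lower, and 2 were higher, while 20.6% were higher. The higher ones were cryaa and crybg1a. The lower ones were cryba1l1, cryba1l2, crybb1l2, crygmx, crygn2 and crybg1b, and crybb1l2 had 18.5, 0, 0.476 and 0.213 CPM in yolk, against 45.4, 36.2, 33.8 and 50 CPM in whole embryos (log2 change -3.05, SE 1.13, adjusted p = 0.0287 by edgeR). Yolk replicate 1 was the high one and still under all whole embryo libraries. Without that library 13 crystallins were lower, and without yolk replicate 2, 3 or 4 there were 3. Without the 5 libraries 30 were lower, while 28.8% of all genes tested were lower. Scaling by library totals gave 22 lower and 1 higher. It moved the median log2 change of all genes tested from -0.25 to -1.31. No share of all genes lower is given for this scaling, so its count is not read as a trait of the crystallins.

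In the last step of yolk most calls depended on replicate 1 of 26 hpf. At 48 against 26 hpf 6 crystallins were lower in yolk, while 16.1% of all genes tested were lower and 12% higher, namely cryba1l1, cryba1l2, cryba2b, crybb1l2, crygmx and crygn2. The gene cryba2b had 0, 0.0561, 0.114 and 0 CPM in yolk at 48 hpf, against 9.22, 0.239, 1.71 and 1.49 CPM at 26 hpf. The ages do not overlap for cryba2b, with or without replicate 1 of 26 hpf, which is the highest. Without that library its log2 change was -4.56 (adjusted p = 0.124 by edgeR), and without the 5 libraries, picked by their crystallin levels, it was -4.55. In the fit without the 5 libraries 2 crystallins were lower, cryba2b and crybg1a. Without replicate 1 of 26 hpf alone none of 44 crystallins passed in edgeR, where 3 had an unadjusted p under 0.05, and the Wald test of DESeq2 on all libraries called 12. In whole embryos at 10 against 6 hpf 4 crystallins were lower, while 20% of all genes tested were lower and 21.2% higher, namely crybg1b, crygmx, crygmxl1 and crygn1. Without whole embryo replicate 4 of 10 hpf 29 were lower, without whole embryo replicate 2 of 6 hpf 1 was, and without whole embryo replicate 1 of 10 hpf 2 were. No share of all genes is given in this paragraph for the fits without the 5 libraries, without a single library or with DESeq2. Their counts show only how far the calls depend on the fit.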

How the data were processed

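Whole embryos and yolk tissue of WT zebrafish were compared in 32 bulk RNA libraries, grouped and numbered by the sample titles. Per the labels' protocols, TRIzol was used for total RNA and a NEBNext Ultra II RNA kit for the libraries. The authors deposited 1 table of raw counts with gene symbols as rows, neither normalized nor pooled. The submitters' processing notes name the aligner STAR 2.7.10b with the build GRCz11, the counter featureCounts 2.0.6, and for reads FastQC 0.12.1 and Trim Galore 0.6.10. No source used here gives settings or strand, so reads of antisense genes or near-identical copies cannot be told apart. Among non-zero counts up to 20, 79.4% were even, and 86.8% among crystallins.

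Counts were scaled by TMM and tested in edgeR 4.0.16 (R 4.3.3) with its quasi-likelihood F test, fitted robustly. Genes were kept by filterByExpr (minimum count 10, minimum total 15), which left 26268. A single fit held 8 group means with 24 residual degrees of freedom, and 11 contrasts were tested two-sided with Benjamini-Hochberg adjustment over all genes and a threshold of 0.05. Each SE was found by dividing the log2 change by the square root of F. Members, lists, contrasts and the rule for named genes were chosen with earlier results of these data known. That rule took all alpha genes, up to 6 genes per class by level, up to 3 called genes per direction and contrast, the genes called higher in yolk and up to 8 genes with at least 1 CPM at 6 or 10 hpf, and from each list up to 4 called genes and the 2 of highest level. A group at 0 counts was set to 3 counts over the group for a bound, and a group with 1 to 3 counts has an exact 95% interval.

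Nothing in the labels says that the 4 libraries of a group came from separate clutches, so p-values measure the spread between libraries. Replicates all differed by more than sampling noise (chi-square per gene at least 14.6). Over 11360 genes above a log2 CPM of 3, same-numbered libraries deviated together in yolk against whole embryos at each age (r from 0.16 to 0.44) and in yolk at 10 against 6 hpf (r from 0.22 to 0.31), all over 0.1. The numbers therefore pair the libraries there, from the data and not from the labels. The main fit does not use this pairing, and the replicate block shares its shifts across all ages. The pairing is less clear for yolk against whole embryos at 6 hpf, where libraries of unlike number reached an r of 0.21. In the other steps at least 1 same-numbered pair lay under 0.1.

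The alternatives were the Wald test and the size factors of DESeq2 1.42.0, scaling to library totals, fitting without a filter, a replicate block, fitting a contrast's libraries alone, and leaving out each library. Leaving out 5 libraries together was added after the data were seen. The fit was also run on simulated counts with the same spread for every gene and no library that stands apart. That run therefore does not cover genes such as the crystallins here.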

Additional observations from a re-analysis of the deposited data

Results flagged for a closer look

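Among 81 sets of 4 libraries with a mean of at least 1 CPM, 26 had a library far from the others. The gap to its nearest neighbour took more of the range than Dixon's 95% critical value for 4 allows. For normally distributed values chance alone gives about 1 in 20. The CPM values were not checked for that shape, so 26 of 81 is not read against this rate. Many of these sets share libraries and genes. Yolk replicate 4 at 6 hpf stood apart in the alpha sum (0.869 of the range), the beta sum (0.886), the gamma M sum (0.936), cryabb (0.871) and crygm2d8 (0.964), and it was the low library for the alpha sum and cryabb. Yolk replicate 1 at 26 hpf did so in the beta sum (0.95), the gamma N sum (0.968), crybb1l1 (0.948) and crygn2 (0.977). Yolk replicate 2 at 6 hpf was the high one in the crybg sum (0.898), crybg1a (0.925) and crybg1b (0.903).

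Whole embryo replicate 2 at 6 hpf stood apart in the beta sum (0.901), the gamma M sum (0.896), the gamma N sum (0.881), crybb1l1 (0.928), crygm2d8 (0.87) and crygn2 (0.876), and was the low library for crybg1b (0.844). Whole embryo replicate 4 at 10 hpf did so in the beta sum (0.942), the gamma M sum (0.996), the gamma N sum (0.955), crybb1l1 (0.997), crygm2d8 (0.997) and crygn2 (0.965). Whole embryo replicate 3 at 48 hpf was high for crybg1a (0.929), with 59.7 CPM in that library and 55.1 to 55.4 CPM in the other 3.

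The change from 26 to 48 hpf differed between yolk and whole embryos for 18 crystallins by the test of the difference itself in edgeR. In log2 units of yolk minus whole embryos it was -4.90 for cryaa, -7.61 for crybb1l1, -6.89 for crygmx and -6.75 for crygn2.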

How the results depend on the processing

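The number of crystallins called, higher and lower together, was 6, 8, 8 and 40 for yolk against whole embryos at 6, 10, 26 and 48 hpf. It was 4, 19 and 26 for the steps of whole embryos to 10, 26 and 48 hpf, 12, 7 and 6 for those of yolk, and 18 for the difference in change. With each library left out in turn these counts ran from 5 to 15, 7 to 9, 5 to 15 and 40 to 42, from 1 to 29, 14 to 33 and 14 to 23, from 5 to 16, 6 to 8 and 0 to 8, and from 5 to 18, in the same order. The 0 was without yolk replicate 1 of 26 hpf in edgeR, where 3 crystallins had an unadjusted p under 0.05, and DESeq2 called 12 on all libraries.

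Without the 5 libraries that stand apart, chosen after seeing the data, the counts moved to 17, 23 and 32 for yolk against whole embryos at 6, 10 and 26 hpf, 38 for whole embryos at 26 against 10 hpf and 2 for yolk at 48 against 26 hpf. With the libraries of a contrast alone they moved to 5 and 15 for yolk against whole embryos at 10 and 26 hpf, 2 for whole embryos at 10 against 6 hpf, 4 and 1 for yolk at 26 and 48 hpf against the age before, and 31 for the difference. Library totals gave 23 for yolk against whole embryos at 26 hpf and 2 for whole embryos at 10 against 6 hpf. The Wald test of DESeq2 gave 12 for yolk at 26 against 10 hpf and 12 at 48 against 26 hpf. The replicate block gave 6 for yolk at 10 against 6 hpf and moved no other count by over 1.5 times. This block gives each replicate number the same shift at all ages, while whole embryos of 26 and 10 hpf had same-number r from -0.23 to 0.06. It thus does not show what pairing within an age would change, which was not tested. DESeq2 size factors and the fit with no filter moved none by that much. The share of all genes called is not set beside the counts of this section. They show how far the calls depend on the processing, and not a trait of the crystallins.

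Log2 changes turned their sign without the 5 libraries. For yolk against whole embryos at 6 hpf they came to 6.21 for crygm2d1, 8.12 for crygm2d10, 6.05 for crygm2d11, 7.16 for crygm2d2, 7.36 for crygm2d3 and 7.53 for crygm2d8. For these genes whole embryo replicates 3 and 4, the libraries left there, had 0 counts. The yolk replicates left had at most 1.94 CPM (crygm2d10), so the sizes of these changes are set near 0 and are not fold differences. At 10 hpf they came to 1.92 for cryba1l1, 3.66 for crybb1, 3.44 for crybb1l1, 4.57 for crygm2d11, 7.10 for crygm2d13, 5.99 for crygm2d21, 4.72 for crygm2d8 and 1.00 for crygn2. Of these crygm2d11, crygm2d13 and crygm2d21 had 0 counts in the whole embryo libraries left. For whole embryos at 26 against 10 hpf they came to 5.09 for crygm2d16, with 0 counts in the 10 hpf libraries left, and 5.09 for crygm2d2. The change of crygm2d11 in that step has no sign there, as it is 0 without replicate 4 of 10 hpf, where both ages have 0 counts, and it reached -8.11 without replicate 2. For yolk they came to 1.90 for cryba2b at 10 against 6 hpf, and -7.10 for crygm2d13 and -1.91 for crygn2 at 26 against 10 hpf. The yolk libraries of 26 hpf left had 0 counts for crygm2d13. The difference in change came to 1.78 for cryba1b, and ran from -10.80 without yolk replicate 3 of 48 hpf to 1.79 without yolk replicate 1 of 26 hpf. The cause was not tested.

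Library totals moved class sums, to 4.27 CPM in yolk at 26 hpf and to 1.45 and 41.5 CPM in whole embryos at 26 and 48 hpf for alpha, 521.2 and 3957 CPM in whole embryos for beta, 77 and 3004 CPM for gamma M, and 36.6 and 267.6 CPM for gamma N. For crybg they gave 132.8 CPM in yolk at 26 hpf, and 140.6 and 125.9 CPM in whole embryos at 26 and 48 hpf, where DESeq2 size factors gave 98.2 CPM at 48 hpf. Depth limits the gamma S genes and other members with few counts, and near copies limit single crygm2d genes.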
